A study of Mus musculus with 32 samples.

Results

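Growth arrest genes were followed in mouse liver that regenerates after surgery and in liver that forms in the embryo. The set holds 8 genes, Cdkn1a, Cdkn1b, Gadd45a, Gadd45b, Gadd45g, Mdm2, Ccng1 and Sesn1, out of 18194 genes measured by an array probe set that names a single gene. They were chosen because earlier values of the same arrays showed separate early and late periods of high Cdkn1a and opposite departures of Gadd45a from time 0, so their levels and differences are given as a description, with no test. Where a gene had several probe sets, the one of highest mean over all arrays stands for it.

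Gene expression was measured on 32 Affymetrix Mouse Genome 430 2.0 arrays of liver from CD-1 mice, with 2 arrays in each of 16 groups and a pool of at least 3 tissues from different animals on each array. Adult liver came from 10-week-old females, either normal (time 0, the control) or taken after a hepatectomy that removed 2/3 of the organ, with the gallbladder; the times were 1, 2 and 6 h, then 12, 18, 24 and 30 h, and last 48 and 72 h. Surgery was done under ketamine and xylazine with buprenorphine as the analgesic afterwards; no sham-operated group was analysed here, so the effects of hepatectomy, anaesthesia and analgesia cannot be told apart. Embryonic liver was dissected daily from 10.5 to 14.5 days post conception (dpc) and again at 16.5 dpc. The embryonic samples were grouped by their source name, which matches their title, because other label fields of the same samples repeat adult or 10.5-day values. All comparisons with time 0 share the same 2 control arrays. Errors and p-values measure the spread between pools, which may in part be technical, and the number of arrays limits the precision.

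Cdkn1a encodes p21 and Cdkn1b encodes p27, inhibitors that bind complexes of cyclins with cyclin-dependent kinases and hold cells before DNA synthesis. The 3 Gadd45 genes encode small stress proteins that bind p21, PCNA and the kinase MAP3K4. Mdm2, Ccng1 and Sesn1 are, with Cdkn1a, well known targets of the transcription factor p53: MDM2 marks p53 for degradation, cyclin G1 binds a phosphatase subunit, and sestrin 1 restrains growth signalling by mTORC1. In regenerating liver p21 is known as a brake on the entry of hepatocytes into S phase.

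The sequences just before the start sites of 5 of the genes are shown so that the 3 Gadd45 genes can be compared with each other and Cdkn1a with Ccng1, which holds the same kind of element. They are the 250 bases before the RefSeq start (mouse build GRCm38.p6), read 5′ to 3′ on the strand of the gene; all 8 genes matched the RefSeq promoter table, with 10 windows. For Cdkn1a (chr17:29090729-29090978, plus strand, the upstream one of its start sites) and Ccng1 (chr11:40755287-40755536, minus strand), capitals mark a p53 response element, here a pair of directly adjoining p53 decamers of which 1 is exact and the other has at most 1 mismatch.
Cdkn1a: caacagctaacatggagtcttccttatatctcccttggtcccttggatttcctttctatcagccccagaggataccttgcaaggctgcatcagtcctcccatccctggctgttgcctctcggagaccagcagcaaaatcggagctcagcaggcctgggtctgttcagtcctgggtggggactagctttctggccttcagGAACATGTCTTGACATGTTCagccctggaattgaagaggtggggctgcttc
Ccng1: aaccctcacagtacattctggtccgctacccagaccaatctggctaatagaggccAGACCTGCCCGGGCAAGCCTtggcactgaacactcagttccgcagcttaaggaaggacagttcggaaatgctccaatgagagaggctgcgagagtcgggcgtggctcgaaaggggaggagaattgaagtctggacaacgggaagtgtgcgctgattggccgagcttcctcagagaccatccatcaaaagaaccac
In Gadd45a (chr6:67037408-67037657, minus strand) capitals mark the octamer ATTTGCAT, on either strand, and the CCAAT box. In Gadd45g (chr13:51846425-51846674, plus strand) they mark the E-box CACGTG, the octamer, the CCAAT box and the TATA box TATAAA, and in Gadd45b (chr10:80929841-80930090, plus strand) the E-box, the CCAAT boxes and the TATA box.
Gadd45a: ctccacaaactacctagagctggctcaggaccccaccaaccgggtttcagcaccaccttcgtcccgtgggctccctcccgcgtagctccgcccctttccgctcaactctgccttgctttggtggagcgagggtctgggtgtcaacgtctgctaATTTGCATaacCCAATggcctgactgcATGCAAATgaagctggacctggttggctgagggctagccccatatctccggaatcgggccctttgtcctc
Gadd45g: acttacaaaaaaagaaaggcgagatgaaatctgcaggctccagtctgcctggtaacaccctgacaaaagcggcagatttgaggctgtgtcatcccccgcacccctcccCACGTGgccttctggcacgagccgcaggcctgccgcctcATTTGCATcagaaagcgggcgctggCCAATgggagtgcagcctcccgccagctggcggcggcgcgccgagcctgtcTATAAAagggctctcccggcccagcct
Gadd45b: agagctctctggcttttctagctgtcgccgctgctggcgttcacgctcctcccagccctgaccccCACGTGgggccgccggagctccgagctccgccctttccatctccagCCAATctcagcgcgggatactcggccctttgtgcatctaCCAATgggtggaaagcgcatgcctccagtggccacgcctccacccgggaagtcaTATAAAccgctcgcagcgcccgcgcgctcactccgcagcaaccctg
The 3 Gadd45 windows differed in the elements they hold. The octamer lay in those of Gadd45a and Gadd45g and in 1.6% of the 32851 windows of this length in the table. The E-box and the TATA box lay in those of Gadd45b and Gadd45g, against 6.02% and 12.4% of all windows. CCAAT, searched on both strands like the others, was found in 7 of the 8 genes and in 33.8% of all windows.

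A p53 response element with a spacer of at most 13 bases was found for Cdkn1a and Ccng1 and in 0.898% of all windows. The Cdkn1a site, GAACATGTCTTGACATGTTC, runs from 51 to 32 bases before the start, and the Ccng1 site, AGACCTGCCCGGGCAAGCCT, from 195 to 176 bases before it. An exact single decamer was present for 5 genes (these and Gadd45a, Mdm2 and Sesn1) and in 7.13% of all windows. The FOXO site TGTTTAC was matched in Mdm2 alone of the 8 genes and in 3.17% of all windows. The AP-1 site TGANTCA (6.75% of all windows) and the CRE TGACGTCA (1.55%) were matched in 0 of the 8 genes. These matches describe letters in the windows and do not show binding.

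The deposited values are probe set intensities on a linear scale, and levels below are given in these units. Array medians lay between 69.7 and 79.5, and a level of 1 gene cannot be set against that of another, since probes differ in brightness. Differences are of log2(level + 16), which understates the change of low genes, and carry the standard error (SE) of a limma fit to all arrays. The 7 hepatocyte markers summed to between 36630 and 68910 on adult arrays and to between 6992 and 36070 on embryonic ones. The second 48 h array stood apart from its partner, with a log2 ratio of the 3′ to the 5′ actin probe sets of 2.42 against 1.01 and an Mki67 level of 175 against 24.9. The second 12 h array (actin ratio 1.39 against 0.57) and the first 10.5 dpc array (3′ to 5′ ratio of Gapdh 1.49 against -0.32) also differed from their partners. Without that 12 h array the 12 h difference from time 0 was 4.21 for Cdkn1a, -0.86 for Gadd45a and 3.02 for Gadd45g, and without that 10.5 dpc array the trend per day was 0.17 for Cdkn1a, 0.14 for Cdkn1b, 0.48 for Gadd45a and 0.15 for Sesn1. In bulk tissue, fewer cells of a type and less RNA per cell cannot be told apart.

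Cdkn1a was low in normal adult liver, high throughout the first day after hepatectomy, low again at 30 h and high once more at 72 h. At time 0 the 2 arrays read 52.3 and 33.4. The 1 h arrays read 266 and 370, the 2 h arrays 458.2 and 460.0, and the 6 h arrays 807 and 642. The 12 h arrays were the highest, with 1060 and 864. All 6 arrays of 1 to 6 h and all 8 of 12 to 30 h exceeded both arrays of time 0, as did 4.95% and 4.66% of all 18194 genes (4.06% lay below throughout 1 to 6 h); this pattern chose the gene and is not evidence for it.

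The decline and the second period of high Cdkn1a were read from the later pairs. The 18 h arrays read 544 and 639.6 and the 24 h arrays 203 and 604, so the 24 h pools were far apart. The 30 h arrays read 119 and 79.9, the 48 h arrays 151 and 148, and the 72 h arrays 306 and 391.8. On this probe set both 48 h arrays lay above both 30 h arrays, and both 72 h arrays above both of 48 h. This late period also chose the gene, so the steps are not evidence for it. The share of all genes with these steps was not computed. Even the 30 h arrays lay above both of time 0. All 4 arrays of 48 and 72 h did so too, as in 7.88% of all genes.

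**Figure D1:**
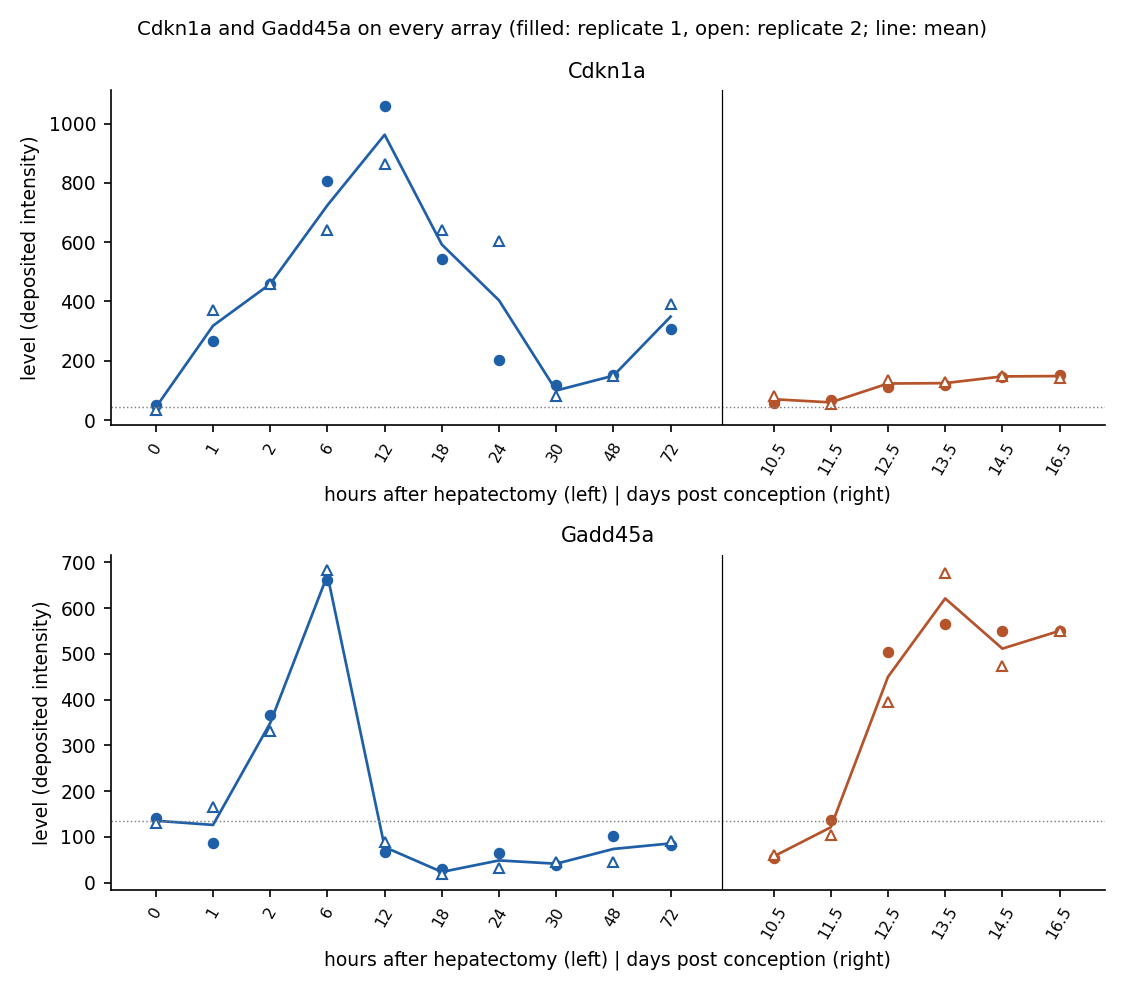
Level (deposited intensity) of Cdkn1a and Gadd45a on every array, by hours after hepatectomy (blue) and days post conception (red), with filled circles for replicate 1, open triangles for replicate 2, a line through the means and a dotted line at the mean of time 0. Cdkn1a is highest at 12 h and is high again, at 306 and 391.8, at 72 h; Gadd45a is highest at 6 h and lies below both time 0 arrays from 12 h on.

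Against time 0, Cdkn1a was higher by 2.51 ± 0.31 on the log2 scale (SE, 2 arrays a group) after 1 h, with 3.03 for 2 h and 3.66 for 6 h, and by 4.07 for 12 h, a 16.8-fold difference. With the same SE it was higher by 3.38 (18 h), 2.67 (24 h) and 0.97 (30 h), and then by 1.51 (48 h) and 2.64 (72 h). From 24 h to 30 h it differed by -1.69 ± 0.31, and from 48 h to 72 h by 1.13 ± 0.31. Without the second 48 h array the 48 h difference was 1.53. The value at 24 h rested on the pool: it was 1.92 without replicate 2 of 24 h and 3.42 without replicate 1.

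In order of level, 12 h, 6 h, 18 h and 2 h came first, and each of the first 3 lay clear of the next. The 2 h, 24 h, 72 h and 1 h groups each overlapped their neighbour. Below a gap followed 48 h and the late embryonic stages, and time 0 was the lowest of all 16 groups.

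On the probe set used, Cdkn1a was higher in embryonic liver than in normal adult liver and far below the peak after surgery. It read 58.7 and 81.6 at 10.5 dpc and 66.4 and 52.8 at 11.5 dpc. From 12.5 dpc the pairs were 113 and 133.5, 120 and 129, 145.3 and 149, and 153 and 143. The earliest stages thus lay below all the later ones. All 12 arrays lay above both of time 0, by 1.08 ± 0.24 on the log2 scale for the mean of the stages. The lowest, 52.8, was just above the higher time 0 array, 52.3. At 10.5 and 11.5 dpc the differences were only 0.56 and 0.38 (each ± 0.31). The trend over the stages was 0.19 ± 0.05 per day.

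A second, dimmer Cdkn1a probe set gave the early period through 18 h and the rise at 72 h. It gave neither the fall from 24 h to 30 h nor the difference in the embryo. It read 44.5 and 27.1 at time 0, 208 and 192 after 6 h, 173 and 168 after 12 h, and 99.9 and 109 after 18 h. At 24 h it read 39.7 and 117, a difference of 0.76 ± 0.35, and the lower array lay within the range of time 0. After 30 h it read 90.1 and 42.5, a difference of 0.62 ± 0.35, and again the lower array lay within the range of time 0. The 48 h arrays, with 99.7 and 37.6, overlapped those of 30 h, and the 72 h arrays read 101 and 156. Its 12 h difference was 1.87 ± 0.35, and its mean over the embryonic stages lay below time 0 by -0.49 ± 0.26, with arrays between -4.37 and 38.1.

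Cdkn1b departed from time 0 in the adult mainly at 6 h, when it was lower, and at 72 h, when it was higher. The arrays read 148 and 140 at time 0, 72.1 and 107 at 6 h, and 259 and 245 at 72 h. The log2 differences were -0.62 ± 0.19 and 0.75 ± 0.19. At 1 h (164 and 197) and 2 h (157 and 182) both arrays lay above time 0, by 0.29 and 0.21. The other adult times lay between 97.5 and 169, within 0.25 of time 0 on the log2 scale; the lowest value was that of the second 48 h array, without which the 48 h difference of -0.25 became 0.00.

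In the embryo Cdkn1b was higher on all 12 arrays than at time 0, by 0.99 ± 0.15 for the mean of the stages. It read 252 and 269 at 10.5 dpc, 188 and 185 at 11.5 dpc, 301 and 278 at 12.5 dpc, and 375 and 361 at 13.5 dpc. At 14.5 dpc it read 329 and 398, and at 16.5 dpc 402 and 405. The stages from 12.5 dpc on thus lay above both earlier ones, and 16.5 dpc was the highest of the 16 groups. The other Cdkn1b probe set read between -0.326 and 25.5 on the 32 arrays, too near 0 to be read.

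Gadd45a was high for a few hours only, and then lay below its starting level for days. The time 0 arrays read 140.2 and 130.0, those of 1 h 87.2 and 164.7, those of 2 h 366 and 332, and those of 6 h 661 and 683. The 12 h arrays read 67.1 and 87.8, and the 18 h arrays 28.5 and 17.7, the lowest level. The 24 h arrays read 65.6 and 31.1, those of 30 h 37.7 and 44.7, those of 48 h 102 and 44.5, and those of 72 h 81.3 and 89.7. The 2 h and 6 h arrays lay above both of time 0, the 1 h arrays on either side of them, and all 8 arrays of 12 to 30 h and all 4 of 48 to 72 h below, as did 4.48% and 7.71% of all genes.

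Gadd45a differed from time 0 by 1.27 ± 0.28 at 2 h, 2.19 ± 0.28 at 6 h (4.56-fold) and -1.96 ± 0.28 at 18 h. Between 6 h and 12 h alone it differed by -2.89 ± 0.28, over the same hours in which Cdkn1a differed by 0.40 ± 0.31. The 1 h value changed sign with the pool, from -0.55 without replicate 2 to 0.26 without replicate 1. The 48 h value was -0.84, and -0.35 without its second array, the one that stood apart. The value at 24 h, -1.29, lay between -1.68 without replicate 1 and -0.89 without replicate 2.

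In embryonic liver Gadd45a lay below time 0 at 10.5 dpc, overlapped it at 11.5 dpc and lay above it from 12.5 dpc on. It read 53.2 and 60.7 at 10.5 dpc and 138 and 104 at 11.5 dpc. It read 505 and 395 at 12.5 dpc, 565 and 678 at 13.5 dpc, 549 and 474 at 14.5 dpc, and 549.9 and 550.7 at 16.5 dpc. The 8 arrays from 12.5 dpc on lay above both of time 0 and both of 10.5 and 11.5 dpc. The log2 difference from time 0 was -1.05 at 10.5 dpc and 1.91 at 16.5 dpc (each ± 0.28), with a trend of 0.49 ± 0.04 per day. In order of level, 6 h after surgery and 13.5 dpc overlapped at the top.

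Gadd45g was high at 1 h already and remained so through 18 h. The time 0 arrays read 63.8 and 88.4, those of 1 h 634 and 652, those of 2 h 306 and 227, and those of 6 h 749 and 551. The 12 h arrays read 723 and 408, the 18 h arrays 643 and 485, and the 24 h arrays 209 and 318. The 2 h pair lay below both the 1 h and the 6 h pair, a dip that neither Cdkn1a nor Gadd45a had. The 2 h arrays also had higher 3′ to 5′ actin ratios (log2 1.44 and 1.72) than those of 1 h (1.17 on both) and 6 h (0.75 and 0.72), and the part of this in the dip was not tested. The 30 h arrays read 124 and 162, the 48 h arrays 229 and 107, and the 72 h arrays 91.7 and 119, still above both arrays of time 0.

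The log2 difference of Gadd45g from time 0 was 2.85 ± 0.31 for both 1 h and 6 h, with 1.61 for 2 h between them, 2.65 for 18 h and 0.40 for 72 h. Its 48 h value, 0.93, was 1.43 without the second array and 0.43 without the first. All 12 embryonic arrays, between 18.8 and 52.7, lay below every adult array, as did 7.52% of all genes. The mean of the stages differed from time 0 by -0.62 ± 0.23, and the trend was 0.03 ± 0.04 per day. The 1 h, 6 h, 18 h and 12 h groups overlapped each other in turn at the top of the order.

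Gadd45b looked different by probe set. The probe set used read 217 and 275 at time 0, 308 and 449 after 1 h, 327 and 288 after 2 h, and 424 and 429.7 after 6 h. These 6 early arrays lay above time 0, by 0.55 ± 0.20 on the log2 scale for their mean, and the later adult arrays lay between 202 and 341. A second probe set, whose suffix (_s_at) marks probes that may match more than 1 transcript, read 42.3 and 39.1 at time 0, 192 and 438 after 1 h, 424 and 404 after 2 h, and 284 and 491 after 6 h.

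On that second probe set Gadd45b was higher by 2.72 ± 0.24 at 1 to 6 h and by 1.32 ± 0.29 at 12 h (140.1 and 112), and the later adult arrays, between 29.8 and 72.4, lay on both sides of time 0. The third probe set read between 50.2 and 88.2 in the adult, with a difference of 0.25 ± 0.16 at 1 to 6 h. In the embryo the used probe set lay between 158 and 275 and differed from time 0 by -0.28 ± 0.18. The other probe sets, in the same order, differed by -0.60 ± 0.22 and -0.98 ± 0.15.

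**Figure D2:**
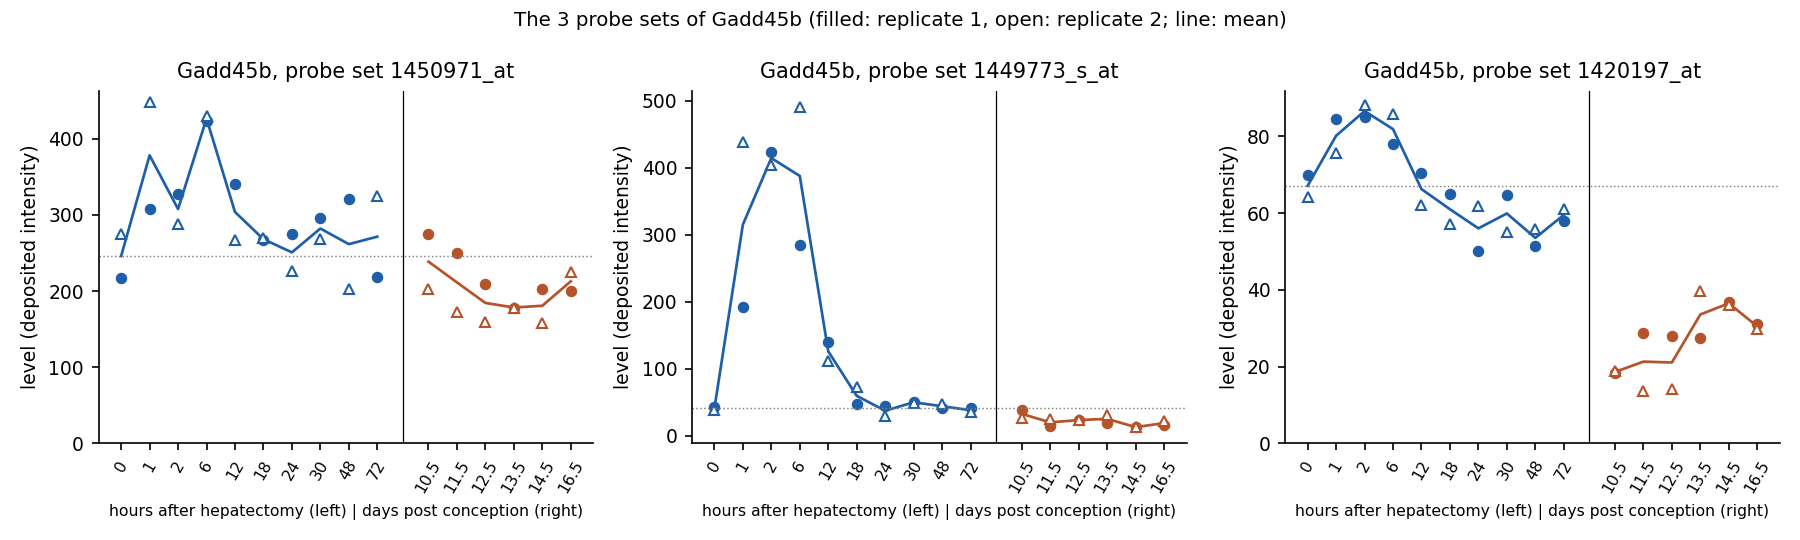
Level (deposited intensity) of the 3 Gadd45b probe sets on every array, by hours after hepatectomy (blue) and days post conception (red), with replicate 1 filled, replicate 2 open, a line through the means and a dotted line at the mean of time 0. The vertical scales differ; 1 probe set goes from 42.3 and 39.1 at time 0 to 424 and 404 at 2 h, while the probe set used for the gene is higher by 0.55 on the log2 scale over 1 to 6 h.

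Among the p53 targets Mdm2, Ccng1 and Sesn1, adult differences from time 0 were small for Mdm2 and depended on the probe set for Ccng1 and Sesn1. Mdm2 read 179.5 and 131 at time 0 and between 83.9 and 194 on the other adult arrays. Its log2 differences at the 9 times lay between -0.34 and 0.27, with an SE of 0.22. The lowest value, 83.9, was that of the 48 h array that stood apart; its partner read 164.8, and without that array the 48 h difference of -0.34 became 0.09.

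In the embryo Mdm2 depended on the probe set. On the one used, all 12 arrays, between 225 and 309, lay above all 20 adult arrays, as in 14.9% of all genes. The mean of the stages differed from time 0 by 0.75 ± 0.17. A second probe set differed by 0.17 ± 0.13 and the third by -0.99 ± 0.39, and with all 3 averaged the difference was -0.02, so no direction is given for the gene.

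Ccng1 read 230.5 and 289.5 at time 0 and between 189 and 357 on the other adult arrays, with no group clear of its neighbour in the order of levels. Its embryonic arrays lay between 226.5 and 385, and the mean of the stages differed from time 0 by 0.17 ± 0.17 (-0.07 after quantile normalization). A second Ccng1 probe set did separate groups: it read 196 and 178 at time 0, 252 and 313 after 1 h, 148 and 144 after 6 h, and 398 and 345 after 72 h. Its differences were 0.55, -0.32 and 0.93 (each ± 0.17). The third probe set was higher by 0.66 ± 0.16 at 18 h and by 0.62 ± 0.16 at 72 h.

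Sesn1 was lower at 12 h than at time 0 and higher in the embryo. The time 0 arrays read 161 and 132, the 6 h arrays 144.9 and 193, the 12 h arrays 97.1 and 95.4, and the 18 h arrays 107 and 114. The 12 h difference was -0.53 ± 0.18, and 7 of the 8 arrays of 12 to 30 h lay below both of time 0. The probe set used carries the _s_at suffix. Of the other 3, 1 with the same suffix was lower by more, with 123 and 143 at time 0 and 42.5 and 53.6 at 12 h (-1.22 ± 0.22), and another read 60.9 and 69.6 at time 0 and 24.1 and 24.8 at 12 h. The fourth differed by -0.18 ± 0.25 at 12 h and by -0.77 ± 0.25 at 1 h; it is the one taken where ambiguous probe sets are left out, which moved 9 Sesn1 results by more than the residual SD between arrays.

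The embryonic Sesn1 arrays all exceeded time 0. They read 221 and 187 at 10.5 dpc, 214.5 and 227 at 11.5 dpc, 299 and 239 at 12.5 dpc, and 345 and 329 at 13.5 dpc. They read 329.6 and 313 at 14.5 dpc and 321 and 380.1 at 16.5 dpc. The later stages thus lay above both earliest ones, with a mean difference from time 0 of 0.86 ± 0.14 and a trend of 0.13 ± 0.03 per day; the fourth probe set gave a mean difference of 0.25 ± 0.19.

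**Figure D3:**
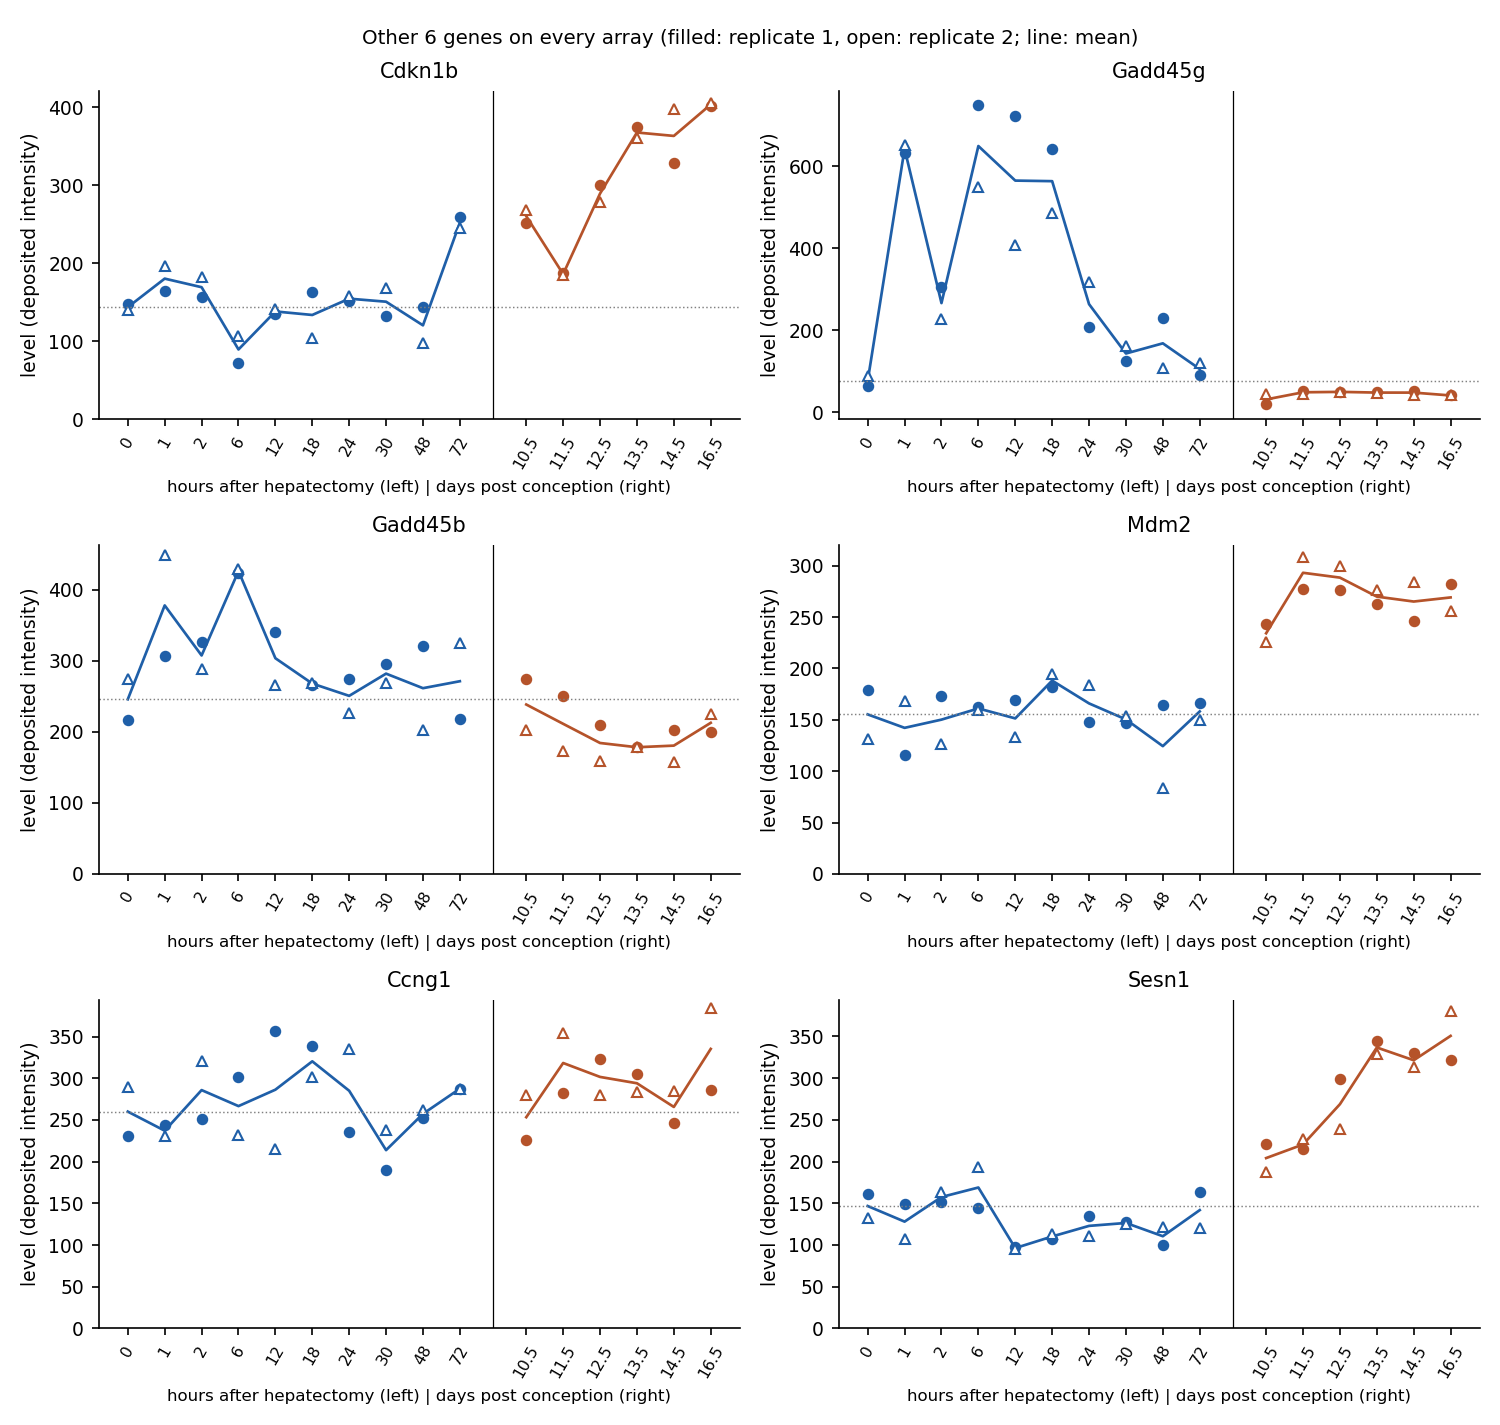
Level (deposited intensity) of the other 6 genes on every array, by hours after hepatectomy (blue) and days post conception (red), with replicate 1 filled, replicate 2 open, a line through the means and a dotted line at the mean of time 0. Gadd45g is high from 1 h to 18 h and lies between 18.8 and 52.7 in the embryo, Cdkn1b and Sesn1 are higher at the later stages, and Mdm2 and Ccng1, by the probe sets used, have adult levels of 83.9 to 194 and 189 to 357.

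Set side by side, the genes fell into distinct courses after surgery. Over 1 to 6 h all 6 arrays lay above both of time 0 for Cdkn1a, Gadd45b and Gadd45g (4.95% of all genes). Over 12 to 30 h all arrays lay above for Cdkn1a and Gadd45g (4.66% of all genes) and below for Gadd45a (4.48%). Over 48 to 72 h the same held for these 3 genes (7.88% of all genes above and 7.71% below). In the embryo all 12 arrays lay above both of time 0 for Cdkn1a, Cdkn1b, Mdm2 and Sesn1 (24.3% of all genes) and below for Gadd45g (19% of all genes); for Cdkn1a and Mdm2 another probe set of the gene had the opposite sign. Gadd45a lay below at 10.5 dpc and above from 12.5 dpc.

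**Figure D4:**
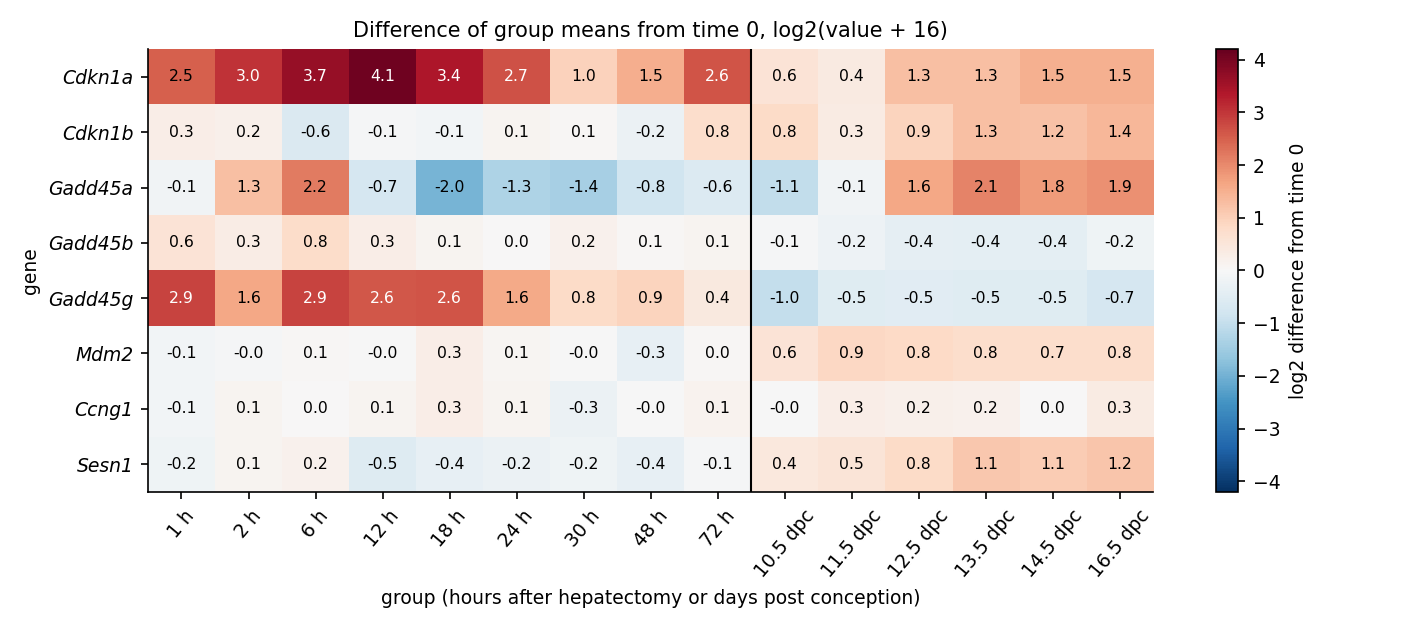
Difference of each group mean from time 0 for the 8 genes, on the log2(level + 16) scale, coloured and printed per cell, for 9 times after hepatectomy (left of the line) and 6 embryonic stages (right). Cdkn1a has positive values in all columns, with 4.07 at 12 h, and Gadd45a turns from 2.19 at 6 h to -1.96 at 18 h and from -1.05 at 10.5 dpc to 1.91 at 16.5 dpc.

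Correlations of group means describe how far the courses ran together; the points share arrays and the time 0 pair, and no p is given. Over the 10 adult times Pearson's r was 0.80 between Cdkn1a and Gadd45g, 0.20 between Cdkn1a and Gadd45a, and 0.78 between Gadd45a and Sesn1. Over the 6 stages it was 0.92 between Cdkn1a and Gadd45a and 0.94 between Gadd45a and Sesn1. Cdkn1a had the same r of 0.92 over the stages with Cdkn1b and with Sesn1, so this value is not particular to Gadd45a. The low adult r of Cdkn1a with Gadd45a is not a separate result, since the genes were chosen for their courses.

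The genes whose adult course was most like that of Cdkn1a, among 3446 genes with a range of at least 1 on the log2 scale, were Gja4 (a gap junction protein), Slc25a32 (a mitochondrial folate carrier), 1810055G02Rik, Ell2 (an elongation factor) and Igfbp1 (a secreted binding protein of insulin-like growth factors). Their r over the 10 group means was 0.915, 0.904, 0.902, 0.892 and 0.88. The mean level of Igfbp1 was 144 at time 0, 5950 at 1 h, 420 at 30 h and 2210 at 72 h. Most like Gadd45a were Tmcc3, Slc25a51, Dnmbp, Pdp2 and Rpp14, with r of 0.941, 0.882, 0.882, 0.872 and 0.866. The mean level of Tmcc3 was 175 at time 0, 382 at 6 h and 90.3 at 18 h. These genes were picked for their likeness, and nothing about shared control follows.

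Other genes of the pathway were taken from 8 lists of 81 genes, of which 78 were measured. Over 1 to 6 h after surgery 8 of the 78 rose and 0 fell (limma, Benjamini-Hochberg adjusted p under 0.05; 16 at an unadjusted p under 0.05), against 0.945% of all 18194 genes called, 0.693% raised and 0.253% lowered. Without replicate 2 of time 0, 5 passed. The median log2 difference of the 78 was 0.05, and that of all genes 0.00. Among the 24 measured p53 targets other than the 8 genes, 3 rose: Trp53inp1, a stress protein that binds p53, by 2.35 ± 0.23 (adjusted p = 2.31e-06, limma), Ddit4, an inhibitor of mTORC1, by 2.70 ± 0.29 (1.17e-05), and Plk3, a stress kinase, by 1.80 ± 0.25 (0.000185).

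The levels of these p53 targets are given for selected times only. Trp53inp1 read 237 and 302 at time 0, between 948 and 1779 over 1 to 6 h, 304 and 244 after 12 h, and 682 and 809 after 72 h. Plk3 read 92.4 and 106 at time 0, between 304 and 456 over 1 to 6 h, and 98.3 and 43.2 at 12 h. Ddit4 read 46.0 and 23.9 at time 0 and 678 and 503 at 1 h. Trp53inp1 was thus higher at 72 h than at 12 h, and its levels between these times are not given here. Of the 9 measured genes of p53 control, 0 passed the test in limma at 1 to 6 h (0 at an unadjusted p under 0.05). The same count of 0 held for the 6 other CDK inhibitors (2 at an unadjusted p under 0.05), the 11 cyclins and kinases (1), the 7 genes of p27 turnover and FOXO control (1), the 5 GADD45 partner kinases (1) and the 2 other sestrin and cyclin G genes (1). Of all genes 0.945% were called, so counts of 0 in lists this short do not show that the genes stayed unchanged.

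Of 14 other growth arrest and stress genes, 5 rose over 1 to 6 h. Btg2, an antiproliferative p53 target, rose by 2.57 ± 0.21 (adjusted p = 4.15e-07, limma), and Atf3, a stress transcription factor, by 3.21 ± 0.31 (3.04e-06). Btg2 read 87.8 and 71.6 at time 0 and 836 and 684 at 2 h. Cebpb, a transcription factor of the liver stress response, rose by 1.28 ± 0.26 (0.0119), Ppp1r15a, which encodes GADD34, by 0.97 ± 0.19 (0.00788), and Btg1, an antiproliferative relative of Btg2 chosen after its value was seen, by 0.86 (0.038). Ppp1r15a missed the threshold without replicate 2 of time 0 (0.82, adjusted p = 0.15), and Cebpb without either array of time 0 (adjusted p = 0.115 and 0.13) or with its probe sets averaged (0.0891). In a limma fit of only the arrays compared, Atf3 (0.0565) and Ppp1r15a (0.258) missed it too.

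Over 12 to 30 h 1 of the 78 genes rose and 5 fell (limma; 20 at an unadjusted p under 0.05), where 4.64% of all genes were called, 2.54% raised and 2.1% lowered. Map2k6, a kinase upstream of p38 in the branch that GADD45 proteins feed, fell by 0.94 ± 0.17 (adjusted p = 0.00196), from 63.3 and 66.2 at time 0 to between 15.4 and 50.6. This call held in all 42 alternative fits. Foxo3, a transcription factor that activates Cdkn1b, fell by 1.03 ± 0.28 (0.0357), Gas2, a cytoskeletal growth arrest protein, by 0.86 (0.0234), Ccnd1, a cyclin of the G1 phase, by 0.79 (0.0485) and Plk2 by 0.66 (0.0338), and Ddit4 was still raised by 1.14 (0.0225). Without replicate 1 of time 0 these 5 calls were lost, with adjusted p of 0.175, 0.188, 0.563, 0.388 and 0.0511, and without replicate 2 with 0.248, 0.154, 0.064, 0.0925 and 0.331; Ccnd1 missed the threshold in 30 of the 42 alternative fits. With all probe sets of a gene averaged, Foxo3 differed by -0.15 (adjusted p = 0.8), Gas2 by -0.37 (0.309) and Plk2 by -0.31 (0.278), so the size of these differences rests on the probe set; Foxo3 also missed the threshold with an added constant of 4 (0.0625). The count of called genes was 1 without either time 0 array and 10 without either 48 h array.

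Over 48 to 72 h 9 of the 78 genes rose and 0 fell (limma; 22 at an unadjusted p under 0.05), where 2.42% of all genes were called, 1.83% raised and 0.588% lowered. Of the 9, 4 were among the 11 cyclins, kinases and partners that the inhibitors bind. Cdk1, the mitotic kinase, passed with an adjusted p of 0.000471; it read 21.0 and -19.6 at time 0, 52.9 and 316 at 48 h, and 642 and 1003 at 72 h, and with time 0 values around 0 the size of its log2 difference is set by the added constant and is not given. Ccna2, cyclin A2, was higher by 2.80 ± 0.42 (adjusted p = 0.000561), also from levels near 0, Pcna, the replication clamp, by 1.27 ± 0.17 (0.000182) and Ccne2, cyclin E2, by 1.06 ± 0.22 (0.00816). Most of the difference was at 72 h. Ccna2 read 11.4 and 16.7 at time 0, 41.6 and 202 at 48 h, and 340.3 and 400.3 at 72 h. Pcna read 279 and 212.5 at time 0, 361 and 353 at 48 h, and 935 and 1145 at 72 h. The 72 h pools thus had high Cdkn1a, Cdkn1b and replication genes at the same time.

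The other 5 that rose were Ckap2 (1.22, adjusted p = 0.00204, limma), Ccng2, a cyclin G gene (0.70, 0.00982), the checkpoint kinase Chek1 (1.52, 0.00956), Btg2 (1.06, 0.0114) and Cks1b, a cofactor of p27 turnover (1.39, 0.0343). Single arrays or the choice of probe set decided several of these calls, and the count was 5 without either time 0 array. With all probe sets of a gene averaged, Chek1 was higher by 0.48 (adjusted p = 0.105), Btg2 by 0.69 (0.419) and Cks1b by 1.01 (0.116). Without ambiguous probe sets Chek1 was higher by 0.90 (0.063), and by its probe set of highest linear mean, a choice added after seeing the data, Btg2 was higher by 0.33 (0.906). Without replicate 1 of time 0, Ckap2, Ccng2, Btg2 and Cks1b missed the threshold (adjusted p = 0.0582, 0.219, 0.0505 and 0.0565). Without replicate 2 of time 0, Ccne2, Btg2, Cks1b and Chek1 did (0.275, 0.169, 0.383 and 0.161), and Cks1b also without replicate 2 of 48 h or either array of 72 h (0.0682, 0.0846 and 0.0719), and Btg2 without replicate 2 of 72 h (0.0504). In a limma fit of only the time 0, 48 h and 72 h arrays 0 of the 78 genes passed (15 at an unadjusted p under 0.05), with adjusted p of 0.433 for Cdk1, 0.433 for Ccna2 and 0.337 for Pcna.

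In embryonic liver against time 0, 39 of the 78 genes rose and 16 fell (limma), where 55.1% of all genes were called, 30.5% raised and 24.6% lowered. Among 6 other CDK inhibitors, Cdkn1c, which encodes p57 and is imprinted, rose (adjusted p = 3.68e-18, limma), from 6.6 and 15.2 at time 0, too near 0 for a meaningful fold, to between 1753 and 3427. Cdkn1c fell over the stages by 0.13 ± 0.03 per day (adjusted p = 0.00154; 0.0793 in 1 alternative fit), where Cdkn1a and Cdkn1b were higher at the later stages. Cdkn2d, which encodes p19, rose by 3.59 ± 0.27 (2.62e-10).

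Of the 11 cyclins and kinases, 9 rose in the embryo and 0 fell (limma), with Pcna at 4.29 ± 0.15 (adjusted p = 1.32e-15). Of the 5 measured partner kinases of GADD45, 4 rose: Map2k6 by 0.99 ± 0.16 (2.29e-05), Map2k3 by 0.72 ± 0.22 (0.00751), Mapk14, a p38 kinase, by 0.53 ± 0.16 (0.0071) and Map3k4 by 0.42 ± 0.16 (0.0295). After quantile normalization Map2k3 (0.39, adjusted p = 0.0953), Mapk14 (0.18, 0.207) and Map3k4 (0.26, 0.2) missed the threshold. Map2k3 also missed it without replicate 1 of time 0 (0.283), Mapk14 (0.146) and Map3k4 (0.447) without replicate 2, and Mapk14 with its probe sets averaged (0.21, 0.26). Map2k6 then fell by 0.20 ± 0.03 per day over the stages (4.66e-05), while Gadd45a was higher at the later stages. Of the 24 p53 targets, 8 rose and 8 fell, where 30.5% of all genes rose and 24.6% fell. Their median log2 difference was 0.03, against 0.02 for all genes. Among those called were Ckap2 at 2.08 (adjusted p = 5.72e-09, limma), Phlda3 at 1.47 (6.51e-07), Fas, a death receptor, at -2.39 (3.13e-07) and Plk3 at -1.87 (4.98e-07). Foxo3 rose by 1.96 (2.49e-06) and Skp2, a ligase subunit that marks p27 for degradation, by 2.45 (2.32e-10).

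**Figure D5:**
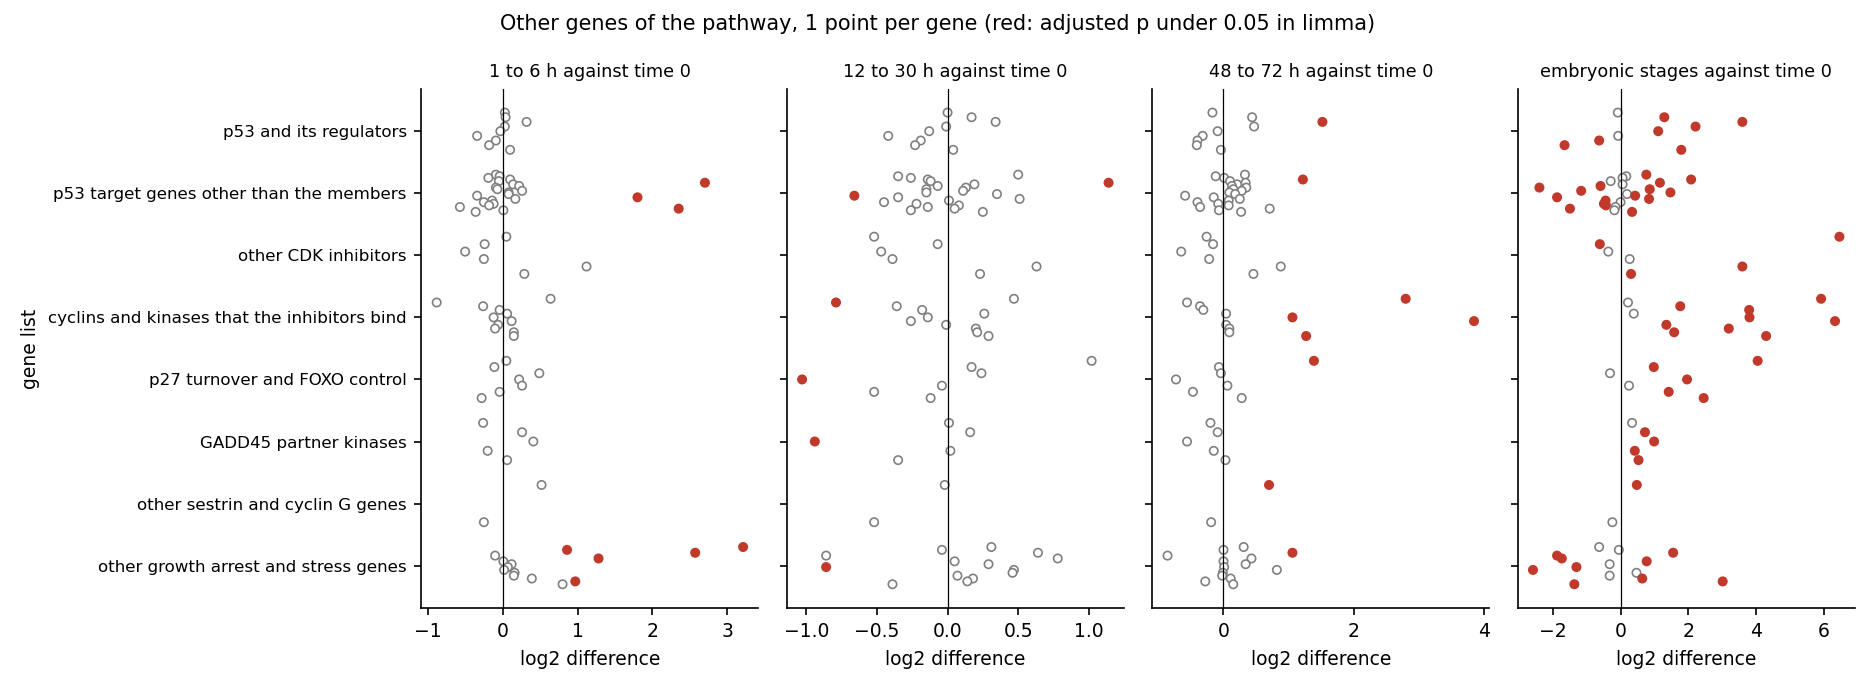
Log2 difference from time 0 (horizontal axis) of the 78 other pathway genes, 1 point a gene, by gene list (rows) and comparison (panels, with different horizontal scales); red points have an adjusted p under 0.05 in limma. At 1 to 6 h 8 genes pass, all of them raised, and in the embryo 55 pass, 39 raised and 16 lowered.

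Over the embryonic stages 17 of the 78 genes rose and 15 fell (limma), where 27.6% of all genes were called, 16.2% raised and 11.4% lowered. Btg2 rose by 0.43 ± 0.04 per day (adjusted p = 1.68e-08), Ppp1r15a by 0.61 ± 0.03 (1.28e-11) and Foxo3 by 0.33 ± 0.05 (4.24e-05). Btg2 read 104 and 62.9 at 10.5 dpc, 351 and 313 at 12.5 dpc, and 483 and 489 at 16.5 dpc, a step between 11.5 and 12.5 dpc like that of Gadd45a. Plk2 fell by 0.34 ± 0.03 per day (4.06e-08), Ccnd2, cyclin D2, by 0.40 ± 0.02 (4.06e-11) and Ddit4 by 0.27 ± 0.05 (0.000481).

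Markers of other cells moved with these comparisons. The 6 measured erythroid markers summed to between 451 and 812 on adult arrays and to between 1592 and 14960 on embryonic ones. The erythroid sums were 1664 and 1592 at 10.5 dpc, 6193 and 4801 at 11.5 dpc, and 12120 and 11000 at 12.5 dpc. By 16.5 dpc they were 14800 and 14960. The hepatocyte sums were 7375 and 6992 at 10.5 dpc and 35170 and 35360 at 16.5 dpc. Cdkn1a, Gadd45a, Sesn1 and Btg2 were higher at these later stages too. The 6 stellate cell and mesenchyme markers summed to between 720.5 and 1614 on adult arrays and to between 2185 and 4050.0 on embryonic ones. They were highest at 10.5 dpc (4050 and 3993). After surgery the 6 neutrophil markers summed to between 988 and 2001 at 1 to 6 h, 944 and 1674 at 12 to 30 h, and 742 and 1931 at 48 to 72 h, against 734 and 762 at time 0; in the embryo they reached 7640. The 6 macrophage markers ran from 2152 to 3894 in the adult and from 1570.0 to 3106 in the embryo. At 72 h, when Cdkn1a, Cdkn1b and the replication genes were high, several of these sums were high on both arrays. The macrophage markers summed to 3894 and 3695, against 2696 and 2716 at time 0, and the 5 measured lymphocyte markers to 567 and 605, against 331 and 279.6. The neutrophil markers summed to 1931 and 1779 on the same 72 h arrays, and the stellate cell and mesenchyme markers to 1481 and 1614, against 1080.0 and 1188 at time 0. The 6 endothelial markers (857 to 1334 in the adult, 905 to 1233 in the embryo), the lymphocyte markers (279.6 to 605 and 117 to 407) and the 4 measured bile duct markers (501 to 663 and 423 to 854) overlapped between adult and embryonic arrays. No marker of any list was at or below 0 on every array. Their part in the levels of the 8 genes was not tested.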

How the data were processed

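Expression was measured in 32 pools of mouse liver RNA, labelled as biotinylated cRNA per the labels' protocols. The authors deposited linear intensities, 1 for each probe set of an array; how they were computed and normalized is not given in the sources used here. Negative intensities (2.54% to 4.02% of an array) were taken as 0 before 16 was added and log2 computed, while printed levels are the deposited ones. Of 45101 probe sets, 34958 had 1 gene symbol in the platform table, 932 several and 9211 none listed; per gene the probe set of highest mean log2 value was used (18194 genes). R 4.3.3 with limma 3.58.1 estimated the 16 group means from the 32 arrays together, with eBayes(trend = TRUE), 16 residual and 4.76 prior degrees of freedom. P-values were adjusted by Benjamini-Hochberg over all genes of a contrast and called at 0.05. The fit was tested on simulated data.

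The 8 genes, the pathway and marker lists and the tests were chosen with earlier results of these data known. The pathway lists were p53 and its regulators, p53 targets, other CDK inhibitors, cyclins and kinases, p27 turnover and FOXO control, GADD45 partner kinases, other sestrin and cyclin G genes, and other growth arrest and stress genes; from each list, the called genes with the smallest p (up to 4 in a contrast) could be named, and not all are. Of the 81 pathway and 49 marker genes listed, 3 of each were not analysed here. The marker lists were hepatocyte, erythroid, macrophage, neutrophil, endothelium, stellate cell, lymphocyte and bile duct. Likeness is Pearson's r over 10 adult group means. Motifs were counted on both strands of RefSeq promoter windows (GRCm38.p6). Alternatives changed the added constant (4, 64), normalization, probe set choice, dim genes, arrays fitted, array weights and a replicate block, and left out each array. A choice of the probe set of highest mean on the linear scale was added after seeing the data.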

Additional observations from a re-analysis of the deposited data

Results flagged for a closer look

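Gadd45a departed from time 0 in opposite directions at different times. Both 6 h arrays lay above both time 0 arrays and both 18 h arrays below, with log2 differences of 2.19 and -1.96, which are 4.15 apart; 2 times lay wholly above and 6 wholly below. Cdkn1b did so at 72 h and 6 h, with log2 differences of 0.75 and -0.62, which are 1.36 apart before rounding. For Cdkn1b 4 times lay wholly above and 1 below. These counts include small departures: at 2 h and 24 h Cdkn1b differed by only 0.21 and 0.1, with an SE of 0.19. The share of all genes with such counts was not computed. Neither the Gadd45a nor the Cdkn1b difference was tested, since these genes were chosen for their courses.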

How the results depend on the processing

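For the 8 genes, 112 results were computed under 42 alternatives each. Of 4704 values, 4586 moved by less than the residual SD between arrays and 117 by more. Many alternatives, such as leaving out an array of another group, could not move a given difference, so 4586 does not measure stability. A change of sign was counted only where the main adjusted p was under 0.05 in limma. The 1 counted was Mdm2 in the embryo against time 0, which was 0.75 and became -0.02 with all probe sets averaged. The other Mdm2 probe sets gave 0.17 and -0.99. Smaller differences changed sign too, such as Gadd45a at 1 h, from -0.15 to 0.26 without replicate 1 of 1 h. An added constant of 64 brought Cdkn1a at 12 h from 4.07 to 3.26. Of the values that moved, 38 came from leaving out an array, and 0 from the replicate block. The block could move none of these differences, since each group holds 1 array of each replicate number. With that block the counts of called pathway genes were 8, 5, 9, 54 and 32, against 8, 6, 9, 55 and 32 for 1 to 6 h, 12 to 30 h, 48 to 72 h, embryo and trend; Ccnd1 was the call lost at 12 to 30 h (adjusted p = 0.0548, limma). Leaving out each array in turn gave ranges of 5 to 10, 1 to 10, 5 to 13, 44 to 58 and 24 to 38; the lowest counts against time 0 came without an array of time 0 and the highest without replicate 1 of 48 h (without replicate 2 of 48 h the counts were 10, 10, 11, 58 and 38). With only the arrays compared, limma called 1 gene at 12 to 30 h and 0 at 48 to 72 h (15 at an unadjusted p under 0.05), with fewer samples to estimate the spread, and with array weights 3 and 4; the cause of the latter was not tested. Replicate numbers did not pair the samples: over 120 group pairs, deviations of same-numbered arrays correlated at -0.359 to 0.555 (median -0.006), with 17 over 0.1. Counts otherwise remained within 1.5 times. With 2 arrays a group, values near or below 0, such as Cdkn1c and Cdk1 in the adult, have no usable order.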
